A study of Mus musculus with 10 samples.

Results

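Keratins are the intermediate filament proteins of epithelial cells. The family was taken here as every feature of the deposited tables whose symbol is Krt followed by a number and at most 1 letter from a to c, which leaves out the keratin-associated proteins. It has 51 members among 23284 features. The study sequenced mRNA from the colorectum of BALB/c mice, 7 weeks old, in 10 libraries, 2 in each of 5 groups, to follow miRNAs delivered by super carbonate apatite (sCA) into colon inflamed by dextran sodium sulfate (DSS). The normal group was untreated and taken on day 0. The other groups received 2% DSS and tail vein injections of a miRNA in sCA on days 1 to 3. They were given a negative control miRNA and taken on day 2 (NC-miR day 2) or day 4 (NC-miR day 4), or miR-29a or miR-29b and taken on day 4. For NC-miR day 2 the labels list the same injection days, although that tissue was taken on day 2. The normal mice had no DSS and no injection of miRNA in sCA, and were taken on day 0. Each comparison with them thus covers DSS, injection, sCA, miRNA and day together. Nothing in the labels says whether the 2 libraries of a group came from separate mice or pools, so p-values measure the spread between these libraries.

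A keratin filament is built from pairs of a type I and a type II chain. Single-layered columnar epithelium, such as the lining of the colon and rectum, uses Krt8 as the type II chain with Krt18, Krt19 and Krt20 as type I chains. Stratified squamous epithelium, such as the epidermis and the lining of mouth, oesophagus and anal canal, uses Krt5 with Krt14 in its basal cells and other pairs in its upper layers, among them Krt1 with Krt10 in skin and Krt4 with Krt13 in wet mucosa. The stress keratins Krt6a, Krt6b, Krt16 and Krt17 appear in squamous epithelium after injury and in skin appendages. In the mouse the columnar lining of the rectum meets the squamous lining of the anal canal at the anorectal junction.

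The type I and type II genes form a cluster each. By the RefSeq annotation of GRCm38.p6, the assembly of mm10, 27 members lie on chromosome 11 between 99232761 and 100269951 and 23 on chromosome 15 between 101348315 and 102032026, with Krt85 unmatched. Krt18 (chr15:102028216-102032026) is the type I gene that sits in the type II cluster, beside its partner Krt8 (chr15:101996711-102004342). Columnar and squamous genes are interleaved in both clusters. On chromosome 11, Krt19 (chr11:100140810-100145926) lies next to Krt15 (chr11:100131759-100135949) and Krt13 (chr11:100117327-100121566), and Krt78 (chr15:101946001-101996624) lies next to Krt8 on chromosome 15.

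The sequences below show the injected miRNA family, the keratin sites that match its seed and the start regions of a squamous and a columnar member. The first pair gives the 3p arms of mouse miR-29a and miR-29b in RefSeq (GRCm38.p6), with the seed (bases 2 to 8), which is the same in both, in capitals. The labels do not say which arm was injected.
mmu-miR-29a-3p: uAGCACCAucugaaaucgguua
mmu-miR-29b-3p: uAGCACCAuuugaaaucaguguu
The letters TGGTGCT, which pair with this seed, occur in the 3′ UTRs of Krt4, Krt6a, Krt6b and Krt7, that is in 4 of 48 members with an annotated 3′ UTR. Among the tested features with a 3′ UTR, 13.5% of 11317 hold them, with a median UTR length of 945 bases against 355.5 in the keratins. Krt4 was at the lowest recorded level in every library. The sites of the other members are given with the match in capitals and 10 bases on either side, and start at base 1811 of the Krt7 UTR, base 224 of the Krt6a UTR and base 210 of the Krt6b UTR. A match of letters is a description and not a shown target.
Krt7: gtcacccaggTGGTGCTagttttgaag
Krt6a: cactcacattTGGTGCTtcatgttgta
Krt6b: cacacacattTGGTGCTtcatgctgta
The start regions are the 250 bases before the annotated start (RefSeq, GRCm38.p6, minus strand) of Krt13, chr11:100121567-100121816, and of Krt20, chr11:99438154-99438403. They were searched on both strands for the TATA box with the letters TATAAA and for the GC box with the letters GGGCGG. They were also searched for a loose form of the AP-1 motif, TGANTCA, where N is any base. The match in Krt13 is TGAATCA, with A at N, at position -196 from the start. It fits the loose form only by this free base and is not a shown AP-1 site. The match in Krt20 is TATAAA at -29, and each is in capitals.
Krt13: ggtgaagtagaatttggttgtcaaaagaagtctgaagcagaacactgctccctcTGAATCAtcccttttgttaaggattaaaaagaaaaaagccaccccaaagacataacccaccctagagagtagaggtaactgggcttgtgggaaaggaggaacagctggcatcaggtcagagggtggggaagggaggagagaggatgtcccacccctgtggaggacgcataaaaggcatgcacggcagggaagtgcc
Krt20: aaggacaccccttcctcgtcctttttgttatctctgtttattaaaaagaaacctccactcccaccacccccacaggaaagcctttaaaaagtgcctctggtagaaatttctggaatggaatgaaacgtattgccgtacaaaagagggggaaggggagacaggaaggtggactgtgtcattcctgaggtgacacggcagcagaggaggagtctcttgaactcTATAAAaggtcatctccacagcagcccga
TATAAA occurred for 1 of 3 columnar and 2 of 13 squamous genes with start regions on file, against 12.4% of all 32851 regions. TGANTCA occurred for 0 of 3 columnar and 1 of 13 squamous genes, against 6.75%. GGGCGG occurred for 0 of 3 and 1 of 13, against 32.7%. A keratin gene counted if any of its start regions held the letters, while the 32851 are single regions. The shares are thus of unlike units.

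Each deposited value is a log2 difference from a baseline of its own gene, so levels cannot be compared between genes, and sequencing depth is unknown. Low values had been raised to a common floor. A member whose lowest value is in 1 library alone counts as never at the floor. Otherwise a member is called at the floor in the libraries that share its lowest value. Its height above the floor is then a lower bound on its true difference from those libraries. Values are given below as log2, either as that height or as the difference from the mean of the 2 normal libraries, with replicate 1 before replicate 2 in each group. Group differences are estimates of limma ± its standard error (SE), over 13050 tested features, and a change is called where the Benjamini-Hochberg adjusted p of limma is under 0.05.

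Most of the family was at the floor. Of the 51 members, 30 were at the floor in all 10 libraries. They were 21 of the 22 hair and root sheath keratins, the atypical Krt222, and 8 of the 20 squamous keratins, namely Krt2, Krt4, Krt9, Krt24, Krt42, Krt75, Krt77 and Krt79. Another 9 were never at the floor, namely Krt7, Krt8, Krt10, Krt15, Krt17, Krt18, Krt19, Krt20 and Krt23, and the remaining 12 were above it in some libraries. Tested were the 13 members above the floor in each of the 2 libraries of some group. Krt8, Krt18, Krt19 and Krt20 were above the floor in all libraries, as were the 14 analysed columnar markers from outside the family and the squamous Krt10, Krt15 and Krt17.

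A single library, replicate 1 of NC-miR day 4, stood apart, and the high squamous values came from it. Of the 21 members above the floor anywhere, 13 were highest there, among them 11 of the 12 squamous ones. The exception was Krt15, highest in normal replicate 1. Krt1, Krt5, Krt6a, Krt6b, Krt76 and Krt80 were above the floor in NC-miR day 4 replicate 1 alone. They entered the 21 through that library and had to be highest in it. The share of all features highest there was not counted. No other library had a keratin above the floor by itself. Over all features, 93 were above the floor in that library alone, 36 of them by more than a log2 of 1. In the other libraries 17 to 65 features were above the floor alone, and 1 to 7 of these by more than a log2 of 1.

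**Figure D1:**
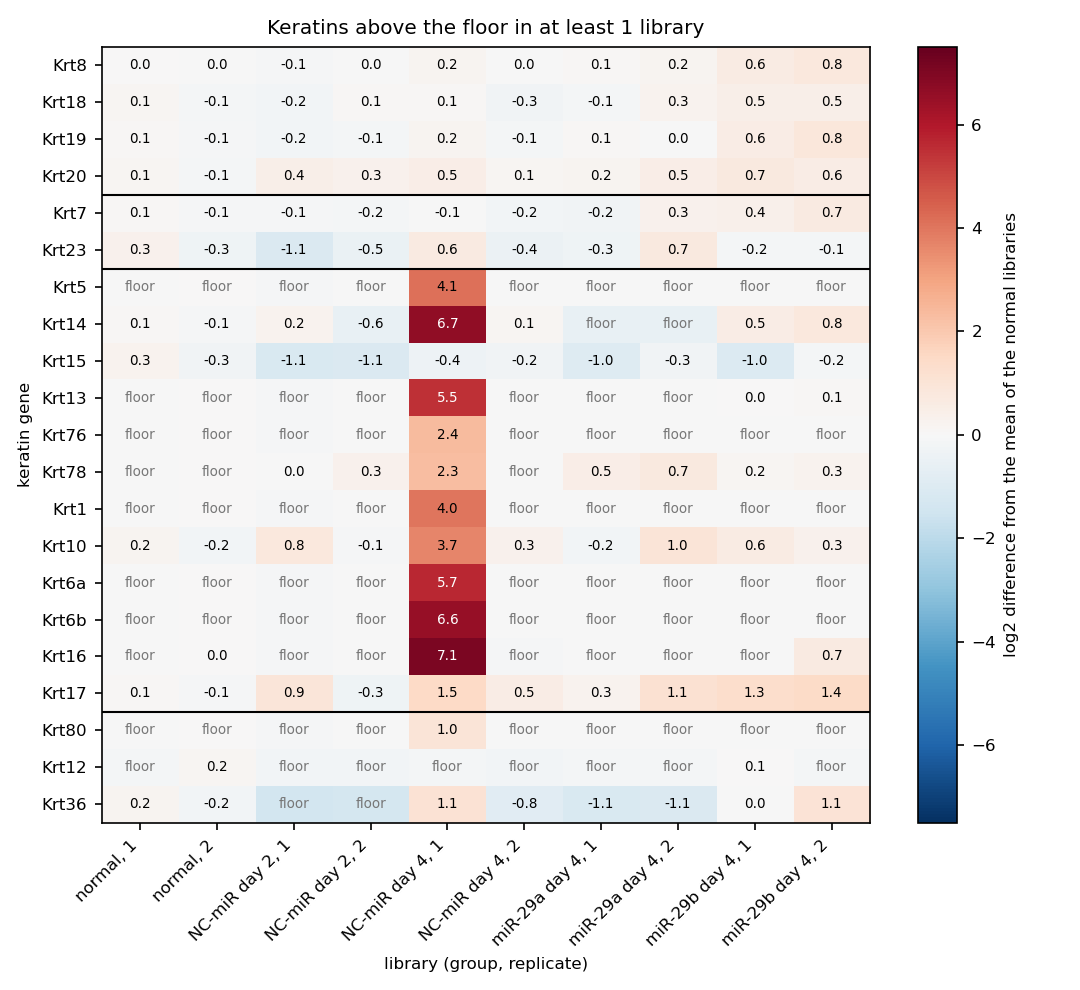
Log2 difference from the mean of the normal libraries for the 21 keratins above the floor in at least 1 of the 10 libraries (columns), in rows ordered from columnar (top) through squamous to other members (bottom), with "floor" where a value is at the floor. The column of NC-miR day 4 replicate 1 holds the high squamous values (Krt14 at 6.67), and the columns of miR-29b hold the highest Krt8, Krt18, Krt19, Krt20 and Krt7 values.

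Squamous members are given by layer, beginning with the basal pair. Krt5, the basal type II chain, lay 4.13 above the floor in NC-miR day 4 replicate 1, at least 17.5-fold, and at the floor in the other 9 libraries. Krt14, its type I partner, was 0.64 and 0.50 above the floor in the normal libraries, 0.88 and 0.03 on NC-miR day 2, 7.25 and 0.74 on NC-miR day 4, at the floor in both miR-29a libraries, and 1.13 and 1.39 with miR-29b. The library at 7.25 is at least 152.6-fold above the miR-29a libraries, and the rest lie within 1.39 of the floor. Krt15, another basal type I chain, did not share this. It was 0.26 and -0.26 from the normal mean in the normal libraries, -1.13 and -1.09 on NC-miR day 2, -0.39 and -0.24 on NC-miR day 4, -0.97 and -0.27 with miR-29a, and -0.999 and -0.15 with miR-29b. Krt15 was thus low in both NC-miR day 2 libraries and in replicate 1 of both miR-29 groups.

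Suprabasal members were high in the same library. Krt13, the type I chain of wet squamous mucosa, was 5.52 above the floor in NC-miR day 4 replicate 1, 0.04 and 0.09 with miR-29b, and at the floor elsewhere. Krt4, which pairs with Krt13, was at the floor throughout. Krt76, of the palate and other mucosa, was 2.39 above the floor in that library alone. Krt78 was at the floor in the normal libraries, 0.04 and 0.34 above it on NC-miR day 2, 2.32 and at the floor on NC-miR day 4, 0.51 and 0.73 with miR-29a, and 0.18 and 0.29 with miR-29b. Krt78 was therefore above the floor in all 4 miR-29 libraries, at under a log2 of 1. Of the skin pair, Krt1 was 4.05 above the floor in NC-miR day 4 replicate 1 alone. Krt10 was never at the floor. Its differences from the normal mean were 0.22 and -0.22 in the normal libraries, 0.78 and -0.11 on NC-miR day 2, 3.68 and 0.34 on NC-miR day 4, -0.20 and 0.97 with miR-29a, and 0.60 and 0.30 with miR-29b.

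The stress keratins had some of the greatest heights. In NC-miR day 4 replicate 1, Krt16 was 7.13 above the floor, Krt6b 6.57 and Krt6a 5.70. Krt16 was otherwise above the floor in normal replicate 2 (0.05) and miR-29b replicate 2 (0.72), and Krt6a and Krt6b in no other library. Krt6a and Krt6b share coding sequence, with 67.1% of the 50-base words of Krt6a and 60.8% of those of Krt6b found in another keratin, so their split is uncertain. For Krt14 the share was 16.8%, for Krt16 13.8% and for Krt5 9.34%. Krt17 differed from these. It was 0.11 and -0.11 from the normal mean in the normal libraries, 0.92 and -0.34 on NC-miR day 2, 1.51 and 0.54 on NC-miR day 4, 0.25 and 1.13 with miR-29a, and 1.29 and 1.45 with miR-29b. For Krt17 both miR-29b libraries lay close to the highest library.

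Between the 2 NC-miR day 4 libraries, 13 of the 21 keratins that varied differed by more than a log2 of 1 (10 of them squamous), replicate 1 being higher. This was so for 1.66% of the 13833 features that varied. Krt16 ranked 4th of these features with a log2 difference of 7.16, Krt6b 6th, Krt14 7th, Krt6a 9th and Krt13 10th, and 11 keratins were among the top 100. The columnar keratins differed between the same libraries by 0.20 (Krt8) to 0.36 (Krt20). These are single libraries, so the ranks are a description of them with no test. Krt1, Krt5, Krt6a, Krt6b, Krt76 and Krt80, which are among the 13, vary only through replicate 1. For them replicate 1 had to be the higher one.

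Squamous markers from outside the family were also high in that library. Of 26 listed genes, 22 were above the floor somewhere, 9 of them in NC-miR day 4 replicate 1 alone. These 9 entered through the library where they are high. Of the 13 above the floor in another library too, 9 were highest in NC-miR day 4 replicate 1. Here too the share of all features highest in that library was not counted. The median difference of these 13 from the normal mean was 1.42 there and -0.24 to 0.15 in the other libraries. Lgals7, the galectin of stratified epithelium, was 3.94 above the floor in NC-miR day 4 replicate 1. It was also above it in NC-miR day 4 replicate 2 (0.18), miR-29a replicate 1 (1.51) and miR-29b replicate 2 (0.75). Sprr1b, a cornified envelope precursor, was 3.10 above the floor in NC-miR day 4 replicate 1 and at the floor in the other 9. Trp63, Dsg3, Sprr3 and Ivl, which are also defining genes of squamous epithelium, were at the floor in all 10 libraries. Of 9 skin appendage markers analysed, 7 were at the floor throughout, and the median of skeletal muscle markers in that library, 0.26, lay within the -0.57 to 0.63 of the others. The part of squamous tissue in the keratin values was not tested. In bulk tissue, fewer cells of a type and less RNA per cell cannot be told apart.

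**Figure D2:**
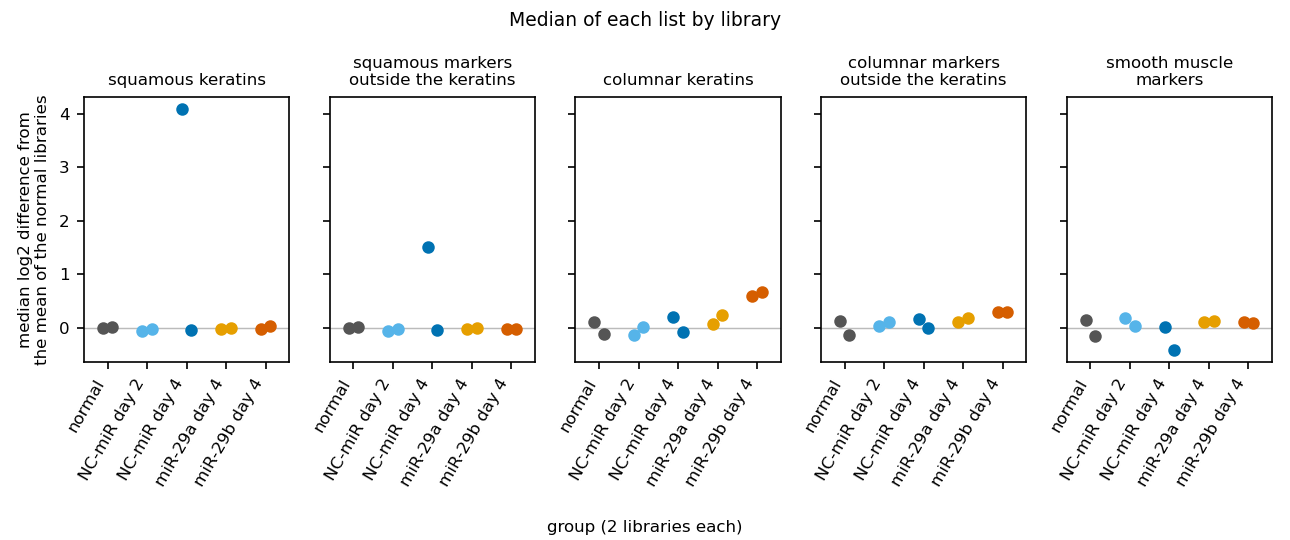
Median log2 difference from the mean of the normal libraries, by library (points, 2 per group), for squamous keratins, squamous markers outside the keratins, columnar keratins, columnar markers and smooth muscle markers. NC-miR day 4 replicate 1 stands at 4.08 for squamous keratins and 1.498 for the other squamous markers, with 5 of those 12 keratins and 9 of those 22 markers above the floor there alone, while both miR-29b libraries are highest for columnar keratins (0.60 and 0.66).

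Set against each other, the median of the 12 squamous members minus that of the 4 columnar ones was -0.12 and 0.12 in the normal libraries, 0.06 and -0.05 on NC-miR day 2, 3.87 and 0.02 on NC-miR day 4, -0.09 and -0.26 with miR-29a, and -0.62 and -0.64 with miR-29b. In NC-miR day 4 replicate 1 the squamous median was 4.08 and the columnar one 0.21. Krt1, Krt5, Krt6a, Krt6b and Krt76 entered this median only through that library. With the 7 squamous members that were also above the floor elsewhere, the value was 3.47 there, 0.02 in NC-miR day 4 replicate 2, and -0.45 and -0.36 with miR-29b. In the other libraries the median of the 12 lies at or near the floor, where it can show little lowering. With the 3 squamous members never at the floor, Krt10, Krt15 and Krt17, the library stood apart less. The value was then 1.30 and 0.41 on NC-miR day 4, 0.90 and -0.35 on NC-miR day 2, -0.27 and 0.73 with miR-29a, and -0.0011 and -0.36 with miR-29b. The squamous medians of these 3 members were 0.60 and 0.30 with miR-29b.

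The columnar keratins were highest in the miR-29b libraries. Krt8, the common type II chain, was 0.05 and -0.05 from the normal mean in the normal libraries, -0.07 and -0.03 on NC-miR day 2, 0.18 and -0.02 on NC-miR day 4, 0.07 and 0.20 with miR-29a, and 0.63 and 0.77 with miR-29b. Krt18, its main partner, was 0.12 and -0.12 in the normal libraries, -0.20 and 0.06 on NC-miR day 2, 0.09 and -0.26 on NC-miR day 4, -0.12 and 0.28 with miR-29a, and 0.45 and 0.46 with miR-29b. For both genes the miR-29b libraries lay above the other 8, which overlapped one another. Krt19, found in crypts and in other ducts and glands, was 0.10 and -0.10 in the normal libraries, -0.18 and -0.12 on NC-miR day 2, 0.23 and -0.12 on NC-miR day 4, 0.08 and -0.01 with miR-29a, and 0.56 and 0.83 with miR-29b. Krt20, the keratin of differentiated surface cells, was 0.12 and -0.12 in the normal libraries, 0.43 and 0.35 on NC-miR day 2, 0.50 and 0.14 on NC-miR day 4, 0.22 and 0.49 with miR-29a, and 0.71 and 0.56 with miR-29b. Krt20 was the one columnar member above both normal libraries in all 8 libraries of DSS mice. Krt7, a simple epithelial type II chain of ducts, was 0.11 and -0.11 in the normal libraries, -0.11 and -0.17 on NC-miR day 2, -0.06 and -0.21 on NC-miR day 4, -0.24 and 0.33 with miR-29a, and 0.37 and 0.66 with miR-29b. Its miR-29b replicate 1 lay only just above miR-29a replicate 2.

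**Figure D3:**
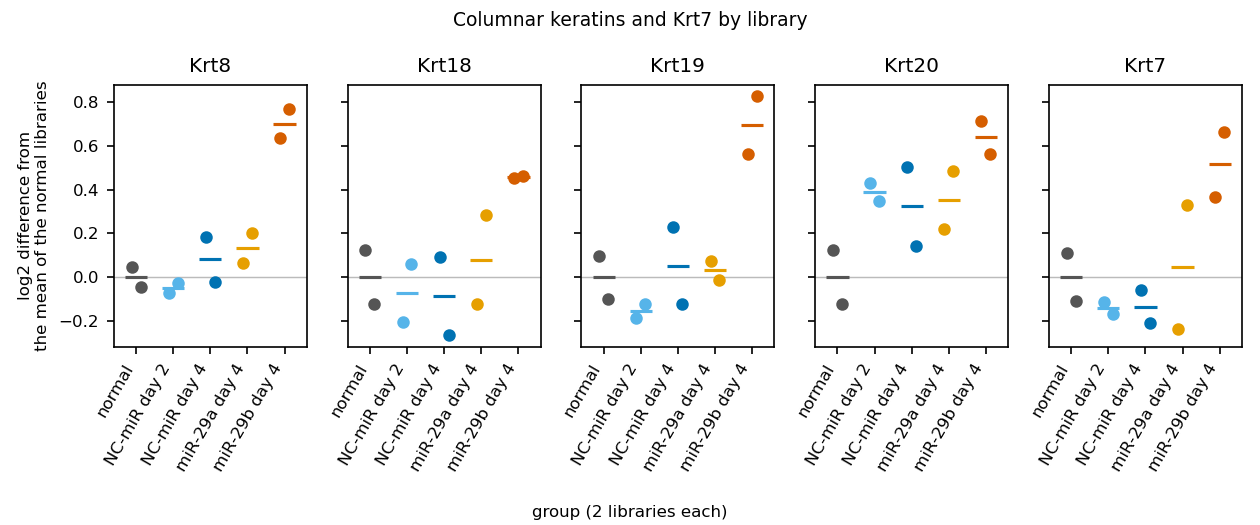
Log2 difference from the mean of the normal libraries for Krt8, Krt18, Krt19, Krt20 and Krt7, with a point for each of the 2 libraries of a group and a bar at the group mean. Both miR-29b points lie above all other points in each panel, for Krt8 at 0.63 and 0.77 against at most 0.20 elsewhere.

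For 5 of the 13 tested keratins both miR-29b libraries were above the other 8, against 4.69% of all tested features. Of the 14 columnar markers outside the family, the same held for 5, namely Cldn3 and Cldn7, which are tight junction claudins, the lectin Lgals4, the surface antigen Gpa33 and the carbonic anhydrase Car1. The remaining 9, among them the adhesion genes Cdh1 and Epcam, did not show it. Replicate 2 of NC-miR day 4 had a low median of smooth muscle markers (-0.41, against -0.15 to 0.18 in the other libraries), and the part of tissue layers in the columnar values was not tested.

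No keratin passed the test in miR-29b against NC-miR day 4, where 0% of all tested features did. At an unadjusted p under 0.05 limma had 4 of 13 keratins, against 12.5% of all. The differences were 0.62 ± 0.13 for Krt8 (adjusted p of limma 0.303), 0.64 ± 0.16 for Krt19 (adjusted p of limma 0.335), 0.65 ± 0.20 for Krt7, 0.54 ± 0.19 for Krt18 and 0.31 ± 0.17 for Krt20. In these 5 members both miR-29b libraries lay above both NC-miR day 4 libraries, as they did in 21.4% of all tested features. Without NC-miR day 4 replicate 1, the differences were 0.72 for Krt8, 0.82 for Krt19, 0.73 for Krt7, 0.72 for Krt18 and 0.49 for Krt20, with adjusted p of limma from 0.238 (Krt8) to 0.352 (Krt20). Without NC-miR day 4 replicate 2, they were smaller, 0.52 for Krt8, 0.46 for Krt19, 0.57 for Krt7, 0.37 for Krt18 and 0.13 for Krt20, with adjusted p of limma from 0.611 (Krt8) to 0.838 (Krt20). Krt7, which holds the seed match of miR-29 shown above, was among these 5 members. The squamous members Krt13 (-2.68 ± 1.37), Krt14 (-2.72 ± 1.63), Krt10 (-1.56 ± 0.91) and Krt78 (-0.92 ± 0.60) had negative estimates, which became 0.10, 0.55, 0.11 and 0.26 without NC-miR day 4 replicate 1. No keratin was lower in both miR-29b libraries than in both of NC-miR day 4, as 18.9% of all tested features were.

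Against the same NC-miR day 4 libraries, which both miR-29 comparisons share, miR-29a gave columnar differences of 0.05 ± 0.13 for Krt8, 0.17 ± 0.19 for Krt18, -0.02 ± 0.16 for Krt19 and 0.03 ± 0.17 for Krt20. No keratin passed, with 0% of all tested features, and 1 of 13 had an unadjusted p of limma under 0.05 against 7.63% of all. That member was Krt14, with a difference of -3.98 ± 1.63 (adjusted p of limma 0.644) and both miR-29a libraries at the floor. Without NC-miR day 4 replicate 1 this difference was -0.70. Krt36, a hair keratin, was 1.52 and 1.10 above the floor in the normal libraries, at it in both NC-miR day 2 libraries, 2.39 and 0.52 on NC-miR day 4, 0.19 and 0.26 with miR-29a, and 1.32 and 2.38 with miR-29b. Its difference between miR-29a and NC-miR day 4 was -1.21 ± 0.56, and -0.26 without NC-miR day 4 replicate 1. Krt14 and Krt36 were the 2 members lower in both miR-29a libraries than in both of NC-miR day 4, as 19.3% of all tested features were, and no member was higher in both, as 20.3% of all were.

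In the direct comparison of miR-29a with miR-29b, which share the seed, no keratin passed and 0% of all tested features did, with 3 of 13 keratins at an unadjusted p of limma under 0.05 against 7.43% of all. The estimates were -0.57 ± 0.13 for Krt8, -0.66 ± 0.16 for Krt19, -0.38 ± 0.19 for Krt18, -0.28 ± 0.17 for Krt20 and -0.47 ± 0.20 for Krt7. Krt36 had the greatest difference, -1.62 ± 0.56 (adjusted p of limma 0.665, as for Krt8 and Krt19), and Krt14 had -1.26 ± 1.63. Each SE pools the spread within all 5 groups. For Krt36 and Krt14 it thus includes the distance between the 2 NC-miR day 4 libraries, which are not compared here. In 9 of 13 keratins both miR-29a libraries lay below both miR-29b libraries, against 19.7% of all tested features. They were Krt7, Krt8, Krt13, Krt14, Krt17, Krt18, Krt19, Krt20 and Krt36. Of these, Krt13 was tested only because both miR-29b libraries had it above the floor, at 0.04 and 0.09. With miR-29a at the floor, its place among the 9 is no separate support. Krt78 lay higher in both miR-29a libraries, as did 18.8% of all.

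**Figure D4:**
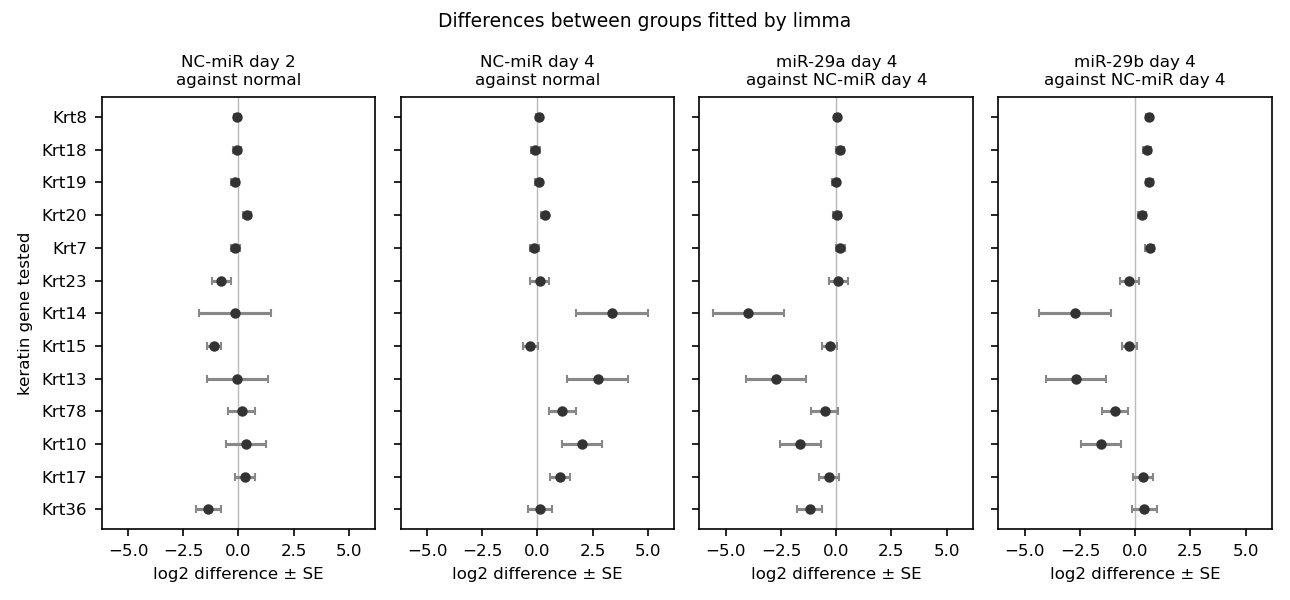
Group differences estimated by limma (points, log2) with their SE (bars) for the 13 tested keratins in 4 comparisons with 2 libraries per group. The columnar members have narrow bars, with Krt8 at 0.62 ± 0.13 in miR-29b against NC-miR day 4, while Krt13, Krt14 and Krt10 have wide ones, since the 2 NC-miR day 4 libraries lie far apart.

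On NC-miR day 4 against normal, no keratin passed, where 0.383% of all tested features did, and limma had 0 of 13 at an unadjusted p under 0.05, against 15.2% of all. The estimates were 3.40 ± 1.63 for Krt14 (adjusted p of limma 0.365), 2.73 ± 1.37 for Krt13, 2.01 ± 0.91 for Krt10, 1.13 ± 0.60 for Krt78, 1.02 ± 0.47 for Krt17 and 0.32 ± 0.17 for Krt20. In Krt10, Krt14, Krt17 and Krt20 both NC-miR day 4 libraries lay above both normal ones, as in 20.4% of all tested features, and no keratin lay lower in both, as 23% of all did. Without replicate 1 of NC-miR day 4, the difference was 0.12 for Krt14, -0.05 for Krt13, 0.34 for Krt10, -0.05 for Krt78, 0.54 for Krt17 and 0.14 for Krt20. Without replicate 2, so that the group is replicate 1 alone and is assumed to vary like the other groups, limma called 3 keratins, with 6.67 for Krt14, 5.51 for Krt13 and 2.31 for Krt78, against 0.253% of all features in that fit. The count of called keratins in this comparison thus turns on 1 library.

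On NC-miR day 2 against normal, which shares the normal libraries with the comparison above, no keratin passed, where 1.22% of all tested features did, and 2 of 13 had an unadjusted p of limma under 0.05, against 15.2% of all. They were Krt15, -1.11 ± 0.32 (adjusted p of limma 0.168), and Krt36, -1.36 ± 0.56 with NC-miR day 2 at the floor (adjusted p of limma 0.301). With Krt23, a type I chain of simple and glandular epithelium (-0.78 ± 0.43), they were the 3 members lower in both NC-miR day 2 libraries than in both normal ones, as 23.7% of all tested features were. Krt23 was 0.30 and -0.30 from the normal mean in the normal libraries, -1.06 and -0.50 on NC-miR day 2, 0.64 and -0.41 on NC-miR day 4, -0.30 and 0.73 with miR-29a, and -0.16 and -0.13 with miR-29b. Krt20 was the member with both NC-miR day 2 libraries above both normal ones (0.39 ± 0.17), as in 18.6% of all. The other columnar estimates ran from -0.15 (Krt19) to -0.05 (Krt8).

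Between day 2 and day 4 of NC-miR no keratin passed, where 0.0153% of all tested features did, and 2 of 13 had an unadjusted p of limma under 0.05, against 6.41%. The estimates were 1.48 ± 0.56 for Krt36, at the floor on day 2 (0.52 without day 4 replicate 1), and 0.79 ± 0.32 for Krt15 (adjusted p of limma 0.748 and 0.762). Krt8, Krt15, Krt23 and Krt36 lay higher in both day 4 libraries, as 16.8% of all tested features did, and no keratin lay lower in both, as 15.5% did. This comparison and that of day 2 with normal share the NC-miR day 2 libraries.

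The features outside the family with the pattern most like the mean of the columnar keratins, by Pearson's r over 10 libraries, were Cotl1 (r = 0.94), Prrx2, Plek2, Amdhd2, Lgals3, Mvp, Myl12b, S100a16, Arhgef16 and Ap1s1 (r = 0.92). Without the 2 miR-29b libraries, r was 0.62 (Lgals3) to 0.82 (Arhgef16) over 8. For the mean of the squamous keratins they were Cdh3 (r = 0.98), Doc2a, Lgals7, Fabp5, Flrt3, Krtdap, Spink5, Pdzd9, Tnfrsf21 and Gnpda1 (r = 0.87). Without NC-miR day 4 replicate 1, r over 9 libraries was -0.42 (Flrt3) to 0.67 (Fabp5), so these rest on that library. With miR-29b replicate 2 left out as well, r over 8 was -0.64 (Tnfrsf21) to 0.66 (Gnpda1). Cdh3, Lgals7 and Spink5 entered the squamous ranking only because both NC-miR day 4 libraries had them above the floor. The remaining members were Krt80, 0.99 above the floor in NC-miR day 4 replicate 1 alone, and the corneal Krt12, above the floor in normal replicate 2 (0.32) and miR-29b replicate 1 (0.23).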

How the data were processed

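RNA was made into stranded mRNA libraries, per the labels' protocols. The submitters' processing notes name TopHat2 2.0.13, Bowtie2 2.2.3, SAMtools 0.1.19, Cuffnorm 2.2.1 and mm10. Per the file headers the deposited column is called FPKM, while its values are log2 differences from a baseline of each gene. A library's most frequent value (-0.0427 to 0.0331) marks the floor, shared within 0.0001. The baseline was judged from 227 features above the floor in 1 library alone, with a floor more than 0.02 below 0. In 119 of these the ratio of height to floor depth was within 0.1 of 16. A mean over 16 libraries, of which 10 are analysed here, fits those 119. No counts are given, so depth is unknown. limma 3.58.1 (R 4.3.3) fitted 5 group means to all 10 libraries (5 residual degrees of freedom), without trend or robust option, over the 13050 features that 1 group or more had above the floor in its 2 libraries, with Benjamini-Hochberg adjustment. Errors are limma standard errors. The fit was tested on simulated data. Every member above the floor anywhere is named, with up to 4 genes of each of 7 marker lists by smallest p, or chosen after their values were seen. The members and lists were chosen with earlier results of these data known.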

Additional observations from a re-analysis of the deposited data

How the results depend on the processing

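No keratin was called in any of the 6 comparisons without the filter, with only features above the floor in all libraries, with the 4 libraries compared alone, with libraries centred to a median of 0, with the robust option, or with the library constant subtracted, the last chosen after seeing the data. The replicate numbers did not pair the libraries (correlations of same-numbered deviations -0.24 to 0.11 over 10 pairs of groups), and with the replicate block 0 keratins were called in each comparison, with 138 of all features in place of 159 on NC-miR day 2 and 30 in place of 50 on NC-miR day 4 against normal. Leaving out 1 library at a time, the counts of called keratins ran from 0 to 3 in NC-miR day 4 against normal and against NC-miR day 2, 0 to 2 in miR-29a and 0 to 3 in miR-29b against NC-miR day 4, with all calls made without NC-miR day 4 replicate 2. Over all features, calls ran over all settings from 16 to 273 on NC-miR day 2 and from 6 to 82 on NC-miR day 4 against normal, from 0 to 94 between these days, and from 0 to 4 in the comparisons with miR-29.

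Some small estimates changed sign. Krt8 on NC-miR day 2 against normal was 0.0035 with libraries centred and 0.0023 with the constant subtracted. With 1 library left out at a time, Krt18 in the same comparison ran from -0.20 to 0.060. On NC-miR day 4 against normal, Krt13 ran from -0.050 to 5.51 and Krt78 from -0.050 to 2.31. In miR-29a against NC-miR day 4, Krt8 ran from -0.048 to 0.15, Krt18 from -0.038 to 0.37, Krt19 from -0.20 to 0.16 and Krt20 from -0.15 to 0.21. In miR-29b against NC-miR day 4, Krt10 ran from -3.23 to 0.11, Krt13 from -5.46 to 0.098, Krt14 from -6.00 to 0.55 and Krt78 from -2.10 to 0.26, with the upper end without NC-miR day 4 replicate 1. The columnar estimates in miR-29b against NC-miR day 4 stayed positive in all settings.

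The squamous minus columnar median moved most when only members never at the floor were used. It was then 0.11 and -0.11 in the normal libraries, 0.90 and -0.35 on NC-miR day 2, 1.30 and 0.41 on NC-miR day 4, -0.27 and 0.73 with miR-29a, and -0.0011 and -0.36 with miR-29b. With the squamous members above the floor in another library than NC-miR day 4 replicate 1, chosen after seeing the data, it was -0.13 in NC-miR day 2 replicate 2, and -0.45 and -0.36 with miR-29b. With means in place of medians it was -0.24 in NC-miR day 2 replicate 2, -0.087 in miR-29a replicate 2, and -0.47 and -0.38 with miR-29b. Without 1 normal replicate it ran from -0.022 to 0.14 and from -0.14 to 0.040 in the NC-miR day 2 libraries, and from -0.70 to -0.54 and from -0.66 to -0.54 in those of miR-29b. The cause of these shifts was not tested.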

Other observations

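Genes that anchor keratin filaments were described from a list of 13 linkers and desmosome genes. None passed the test in any of the 6 comparisons by limma. At an unadjusted p of limma under 0.05 there were 3 of 13 on NC-miR day 2 and 3 of 13 on NC-miR day 4 against normal, against 15.2% of all tested features in both. The median differences were 0.18 and 0.25, against -0.06 and -0.03 over all tested features. The estimates were above 0 for 10 and 12 of the 13, against 41.2% and 44.6% of all. All 13 were above the floor in every library. Of 13 tested squamous markers outside the keratins, 0 passed and 3 had an unadjusted p of limma under 0.05 on NC-miR day 4 against normal, against 15.2% of all. The median estimate of the 13 was 0.66, while by library their median was 1.42 in replicate 1 and -0.10 in replicate 2. Spink5, which is among the 3, and Lgals7 were tested only because both NC-miR day 4 libraries had them above the floor. Spink5 was at 1.59 and 0.80 there, and Lgals7 at 3.94 and 0.18. Their place in this count and median is no separate support. Of 14 tested columnar markers, 0 passed and 6 had an unadjusted p of limma under 0.05 in miR-29b against NC-miR day 4, against 12.5% of all. The estimates were above 0 for 12 of the 14, against 53% of all, with a median of 0.27 against 0.02 over all. None of 10 smooth muscle and 5 skeletal muscle markers passed in any comparison.

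The type I interferon list did have calls in the same libraries. All 8 of its genes rose on NC-miR day 2 against normal, by 2.81 to 5.82 on the log2 scale, and 4 of 8 rose on NC-miR day 4, by the adjusted p of limma, against 1.22% and 0.383% of all tested features called. The keratin medians in these comparisons were -0.07 and 0.12.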
